A study of Mus musculus with 9 samples.

Results

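The genes described are 4 alcohol dehydrogenases (Adh1, Adh5, Adh6a and Adh7), 5 aldehyde dehydrogenases (Aldh1a1, Aldh1a2, Aldh1a3, Aldh2 and Aldh3a1) and transketolase (Tkt), found by symbol in the 9 deposited tables. The set was chosen by gene family around Adh6a, which was itself selected on its RPKM in the 3 strains. All 10 were listed, among 13089 genes, and all 10 passed the filter on low values. They were measured in whole eyes of C57BL/6J, BALB/c and A/J mice, 3 inbred strains, by sequencing of poly(A) RNA from female mice of 4 weeks. Each strain had 3 libraries and each library was made from pooled RNA of 5 mice. A/J and BALB/c are albino and C57BL/6J is pigmented, and by the stated design the strains differ in how fast the retina degenerates. Whether a strain's libraries came from separate pools is not stated, so the p-values cover only library-to-library spread, possibly technical. Levels are the deposited values, read as RPKM (reads scaled to transcript length and to mapped reads), which lets genes be compared per length.

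Alcohol dehydrogenases oxidise alcohols to aldehydes, and several of them accept retinol, the alcohol form of vitamin A. Aldehyde dehydrogenases oxidise the aldehydes further to acids, and those of the Aldh1a group make retinoic acid, a ligand of nuclear receptors. In the mammalian cornea Aldh3a1 and transketolase accumulate to such amounts that they have been called corneal crystallins. A whole eye holds cornea, lens, retina, pigment epithelium and attached tissue, so in these samples fewer cells of a type and less RNA per cell cannot be told apart.

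Adh6a, which encodes the class V alcohol dehydrogenase, was at 11.86 RPKM or more in C57BL/6J eyes and at 0.25 RPKM or less in both albino strains. Adh7, which encodes the class IV enzyme of surface epithelia, was lower in both albino strains as well, although still well expressed. Adh1 and Adh5 lie in the same gene cluster and were not called in any comparison. In the RefSeq annotation of mouse chromosome 3 the order of the cluster is Adh7, Adh1, Adh6a, Adh6b, Adh4 and Adh5, of which Adh6b and Adh4 were not listed. A start-site sequence of each of the 4 listed cluster genes is shown because Adh6a and Adh7 were low together in the albino strains while their neighbours were not called. The sequences are RefSeq's for build GRCm38.p6, an assembly of C57BL/6J, from 250 bases before to 50 bases after a transcript start, read 5′ to 3′. Capitals mark matches on either strand to the TATA box letters TATAAA, to the GC box letters GGGCGG or to the CCAAT box. The build differs from the mm9 build named in the submitters' processing notes, and sequence of A/J and BALB/c was not used here.
Adh7, chr3:138217523-138217822, plus strand: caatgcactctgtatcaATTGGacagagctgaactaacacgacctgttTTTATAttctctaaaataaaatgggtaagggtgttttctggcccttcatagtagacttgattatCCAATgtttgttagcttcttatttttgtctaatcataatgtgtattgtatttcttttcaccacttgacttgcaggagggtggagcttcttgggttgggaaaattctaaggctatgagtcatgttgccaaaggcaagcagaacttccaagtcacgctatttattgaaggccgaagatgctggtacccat
Adh1, chr3:138277335-138277634, plus strand: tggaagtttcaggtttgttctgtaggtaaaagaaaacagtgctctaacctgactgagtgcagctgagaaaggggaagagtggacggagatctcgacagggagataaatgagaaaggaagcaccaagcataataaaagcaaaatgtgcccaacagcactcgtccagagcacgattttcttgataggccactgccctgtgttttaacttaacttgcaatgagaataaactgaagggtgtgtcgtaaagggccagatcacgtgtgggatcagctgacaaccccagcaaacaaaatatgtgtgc
Adh6a, chr3:138313036-138313335, plus strand: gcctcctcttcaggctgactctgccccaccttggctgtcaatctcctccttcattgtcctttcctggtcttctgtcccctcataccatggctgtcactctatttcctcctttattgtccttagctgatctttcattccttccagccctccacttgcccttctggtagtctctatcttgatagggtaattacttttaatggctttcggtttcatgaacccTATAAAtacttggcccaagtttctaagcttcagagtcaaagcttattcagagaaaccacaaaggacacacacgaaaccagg
Adh5, chr3:138442843-138443142, plus strand: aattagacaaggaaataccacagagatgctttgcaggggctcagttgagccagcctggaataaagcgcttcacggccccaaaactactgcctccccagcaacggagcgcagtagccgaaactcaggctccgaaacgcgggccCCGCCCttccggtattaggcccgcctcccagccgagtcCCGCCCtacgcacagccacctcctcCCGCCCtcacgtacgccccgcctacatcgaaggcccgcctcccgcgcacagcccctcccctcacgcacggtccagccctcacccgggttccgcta
The Adh6a window held TATAAA at -31 from the start. The Adh7 window held its only TATAAA match at -202 from the start, on the opposite strand, with CCAAT at -233 and -138. The Adh1 window held none of these letters, and the Adh5 window shown held 3 GGGCGG matches, at -108, -70 and -45. RefSeq has a start of Adh5 besides, whose window, chr3:138436950-138437249 on the plus strand, held TATAAA at -207 and no GGGCGG or CCAAT. Among 32851 promoter windows of this length TATAAA was found in 13.6%, GGGCGG in 35.7% and CCAAT in 37.4%. These matches describe the reference letters and are not evidence of binding. RefSeq windows were found for 7 of the 10 genes.

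Adh6a was singled out on its strain values, so its levels are a description and no test is given. It stood at 17.49, 11.86 and 13.84 RPKM in C57BL/6J libraries 1, 2 and 3. The A/J libraries held 0.1, 0.25 and 0.05 RPKM, those of BALB/c 0.22, 0.2 and 0.16. All C57BL/6J libraries lay far above all albino libraries, and the A/J and BALB/c ranges overlapped. The means were 14.4 ± 2.86 RPKM (SD, n = 3) in C57BL/6J, 0.133 ± 0.104 in A/J and 0.193 ± 0.0306 in BALB/c. The C57BL/6J mean was 108 times the A/J mean and 74.5 times the BALB/c mean, ratios that rest on values close to 0. As log2(scaled RPKM + 0.5), a measure that makes changes of low genes look smaller, the differences from C57BL/6J were -4.46 in A/J and -4.30 in BALB/c. With a pseudocount of 0.1 they were -5.93 and -5.46, and with 1 they were -3.66 and -3.57. Adh6a passed the filter only through the C57BL/6J libraries. In C57BL/6J it ranked 3894, 5350 and 5609 from the top among the 13089 genes, and in the albino libraries from 13029 to 13069. These ranks hold within the deposited list, in which every gene reached a mean of at least 0.997 RPKM in some strain. Of the 31-mers of its annotated transcripts 1.5% occurred in another gene, most often the neighbouring Adh6b (1.1%). That share covers reference transcripts only. How A/J and BALB/c sequence variants affect the matching of reads to the mm9 build was not tested, for Adh6a or any other gene.

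The genes whose levels ran most like those of Adh6a over the 9 libraries were Rpl3 (Pearson r = 0.998), Pbp2 (0.995), Stfa1 (0.993), Trim12 (0.992) and Rpl29 (0.991) on the log2(scaled RPKM + 0.5) scale. These correlations rest on the C57BL/6J libraries standing apart from the other 6, so they describe a shared strain pattern. Rpl3 and Rpl29 encode ribosomal proteins, Stfa1 a stefin and Trim12 a tripartite motif protein. The mean RPKM of Pbp2 was 15.4 in C57BL/6J, 0.23 in BALB/c and 0.133 in A/J. In the same order the means were 28.85, 0.667 and 0.507 for Rpl3, and 25.23, 0.417 and 0.0867 for Rpl29. They were 2.95, 0.03 and 0 for Stfa1, and 3.94, 0.0067 and 0 for Trim12. Shared sequence differed among them: 37.6% of 31-mers of Rpl3, 43.8% of Stfa1, 16% of Trim12 and 44.9% of Rpl29 occurred in other genes, against 0% of Pbp2, so the levels of those 4 are uncertain.

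For Adh7 the C57BL/6J libraries had 99.09, 61.26 and 90.42 RPKM, those of A/J 25.52, 26.35 and 14.89, those of BALB/c 20.09, 17.3 and 16.82. Every C57BL/6J library lay above every albino library, and the albino strains overlapped. In A/J Adh7 was lower than in C57BL/6J, at 22.3 ± 6.39 against 83.6 ± 19.8 RPKM (SD, n = 3; log2 difference -1.79, SE 0.247, limma adjusted p = 0.00491). In BALB/c it was also lower, at 18.1 ± 1.77 RPKM (log2 difference -1.98, SE 0.247, limma adjusted p = 0.00286). The 2 comparisons share the same C57BL/6J libraries. A/J and BALB/c did not differ beyond their spread (log2 difference 0.19, SE 0.247, limma adjusted p = 0.642), except that A/J was called higher without A/J 3 and C57BL/6J 3 (0.47, limma adjusted p = 0.0283). Adh7 remained called in all 20 alternative analyses of each comparison with C57BL/6J, with log2 differences from -2.36 to -1.50 in A/J and from -2.15 to -1.82 in BALB/c. Only 2.2% of its 31-mers occurred in another gene.

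Some keratins of surface epithelium also differed between these strains. Of 20 tested markers of corneal and conjunctival epithelium, limma called 3 lower in each albino strain than in C57BL/6J and 0 higher. These were Krt4, Krt13 and Krt15, keratins of stratified epithelium. Of all genes 1.62% were called lower in A/J and 1.15% in BALB/c. At an unadjusted p under 0.05, limma gave 1 higher and 8 lower in A/J and 4 higher and 6 lower in BALB/c. The share of all genes with such a p, in either direction, was 17.5% and 13.8%. The list's median log2 difference was -0.26 in A/J and -0.11 in BALB/c, against -0.01 over all genes in each. Krt13 had 231, 151.04 and 335.67 RPKM in the C57BL/6J libraries, with 33.66, 30.87 and 30.99 for A/J, then 62, 67.75 and 72.69 for BALB/c (limma adjusted p = 0.000238 and 0.00471 against C57BL/6J). Among the 3, the call of Krt15 in BALB/c (limma adjusted p = 0.0149) was lost without BALB/c 1 (0.0516), BALB/c 2 (0.0859), BALB/c 3 (0.0806) or C57BL/6J 1 (0.0504), and that of Krt4 (0.00858) without BALB/c 2 (0.0515) or BALB/c 3 (0.0555). Between the albino strains the A/J libraries were called lower for Krt13, Krt15 and Sfn, with the call of Krt13 lost in 7, of Krt15 in 9 and of Sfn in 6 of 20 alternatives. The summed level of the 21 listed markers overlapped between strains, with 3510 to 5299 RPKM for C57BL/6J, 3803 to 4561 for A/J, 4016 to 4790 for BALB/c. Krt12 and Krt5 had the highest means among them (2384.6 and 993.71 RPKM over the libraries), so this sum says little of Krt4, Krt13 or Krt15. No listed marker was at 0, and Krt12, the keratin that marks corneal epithelium, was at 1632 to 3015.13 RPKM across the libraries. Its log2 differences from C57BL/6J went the other way, 0.62 in A/J and 0.57 in BALB/c (limma adjusted p = 0.189 and 0.233). Those of Krt5 were -0.11 and 0.30 (limma adjusted p = 0.671 and 0.484).

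Set against Krt12 in the same library, Adh7 stood at 0.0409, 0.0375 and 0.0523 of its level in C57BL/6J, and at 0.00621 to 0.00897 in the albino libraries. The groups did not overlap. Set against Krt13, Adh7 stood at 0.429, 0.406 and 0.269 in C57BL/6J. The same ratio was 0.758, 0.854 and 0.48 for A/J, 0.324, 0.255 and 0.231 for BALB/c. The A/J ratios to Krt13 were above those of C57BL/6J and those of BALB/c overlapped with them. The part of surface epithelium in the Adh7 difference was not tested.

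Adh1 encodes the class I enzyme, the main ethanol-oxidising form of liver, which also accepts retinol. Its values were 194.63, 103.82 and 197.51 RPKM for the C57BL/6J libraries, 114.43, 127.71 and 79.12 for A/J, 107.72, 108.76 and 113.58 for BALB/c. Libraries C57BL/6J 1 and 3 were the highest, whereas C57BL/6J 2 lay below all BALB/c libraries and among those of A/J. The log2 differences from C57BL/6J, -0.48 in A/J (SE 0.251, limma adjusted p = 0.32) and -0.35 in BALB/c (SE 0.251, limma adjusted p = 0.635), were not larger than this spread.

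Adh5 encodes the class III enzyme, which oxidises the glutathione adduct of formaldehyde and is made in nearly all tissues. It was among the steadiest of the 10 genes, with 54.21, 51.46 and 47.1 RPKM for C57BL/6J, 53.39, 46.23 and 52.43 for BALB/c, 64.63, 64.27 and 50.6 for A/J. The ranges overlapped in all 3 comparisons, and A/J library 3 lay with the other strains. Its difference of 0.33 between A/J and C57BL/6J (log2, SE 0.158, limma adjusted p = 0.301) was called only without A/J 3 (0.47, limma adjusted p = 0.0441) or without both A/J 3 and C57BL/6J 3 (0.35, limma adjusted p = 0.0228). In that last analysis A/J was also called above BALB/c (log2 difference 0.30, limma adjusted p = 0.0193), against 0.16 and an adjusted p of 0.524 with all libraries. For A/J against C57BL/6J these fits called 3630 and 5043 of all genes, against 348 with all libraries.

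**Figure D1:**
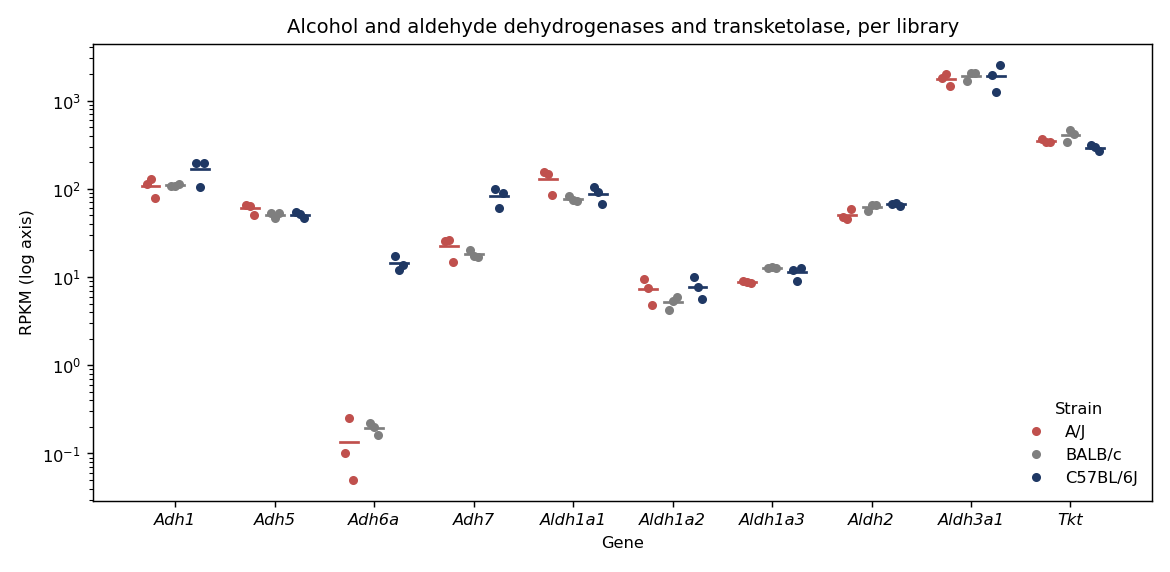
RPKM of the 10 genes on a log axis, with a point for each library and a line at each strain's mean of 3 libraries. Adh6a lies at 0.25 RPKM or less in the albino libraries and at 11.86 to 17.49 RPKM in C57BL/6J, while Aldh3a1 lies at 1263.22 RPKM or more in every library.

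The make-up of the listed alcohol dehydrogenases differed accordingly. The summed level of the 4 genes was 314 ± 74.8 RPKM for C57BL/6J, 189 ± 39.3 for A/J, 179 ± 5.66 for BALB/c (SD, n = 3), and C57BL/6J 2 at 228.4 lay close to A/J 2 at 218.58. Adh1 was the largest part in each strain, at 51.8% ± 5.7, 56.3% ± 1.89 and 61.5% ± 1.91 in C57BL/6J, A/J and BALB/c. Adh7 made up 26.6% ± 0.624 of the sum in C57BL/6J, 11.6% ± 1.17 in A/J and 10.1% ± 0.959 in BALB/c. Even where it was expressed, Adh6a was the smallest part, at 4.79%, 5.19% and 3.97% in the C57BL/6J libraries. The sum uses RPKM per gene and says nothing of enzyme amounts.

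**Figure D2:**
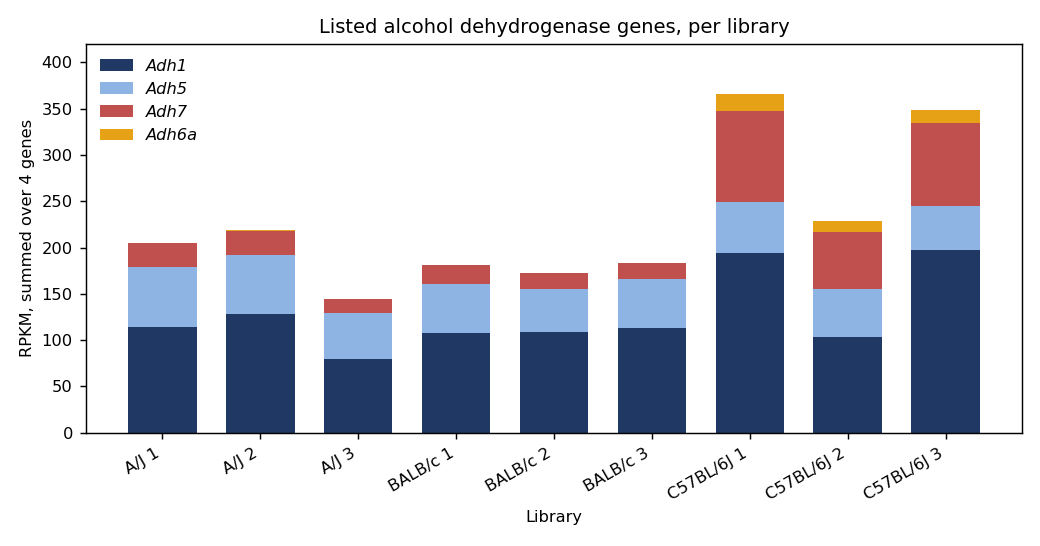
Stacked RPKM of Adh1, Adh5, Adh7 and Adh6a in each library, from 0. The Adh7 segment spans 61.26 to 99.09 RPKM in C57BL/6J and 14.89 to 26.35 RPKM in the other 6 libraries, and Adh6a is visible as a segment in C57BL/6J.

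Genes on either side of the cluster were examined, a choice made after the values of Adh6a and Adh7 were seen. Of the 8 nearest protein-coding genes on each side in RefSeq order, 11 of 16 were tested. Of all genes 2.69% were called by limma in A/J against C57BL/6J, and 17.5% had an unadjusted p under 0.05. Of the 11 genes 0 were called there and 1 had such a p. Their log2 differences ran from -0.40 (Rap1gds1) to 0.58 (Trmt10a). In BALB/c against C57BL/6J limma called 1 of the 11 and gave 3 an unadjusted p under 0.05, against 3.09% and 13.8% of all genes. The called gene was H2az1, a histone variant gene listed as H2afz, which was higher (log2 difference 0.90, limma adjusted p = 0.0134). The lowest difference was -0.69 (Rap1gds1). The nearest outer neighbours with a value, Trmt10a beside Adh7 and Metap1 beside Adh5, had log2 differences of 0.58 and 0.31 in A/J and 0.05 and 0.09 in BALB/c, and were not called.

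**Figure D3:**
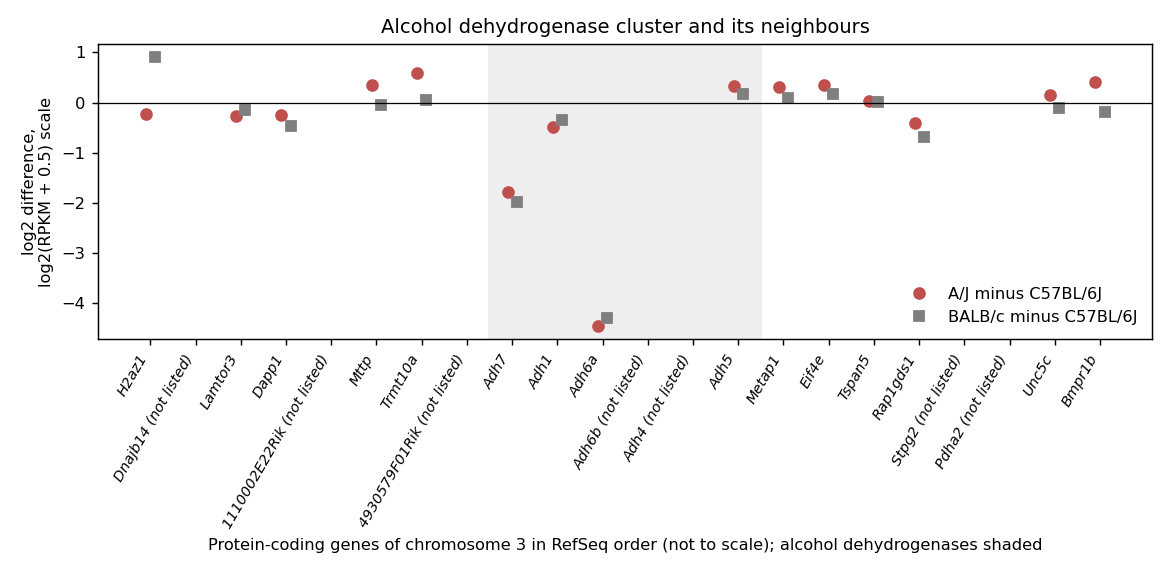
Log2 difference from C57BL/6J, on the log2(scaled RPKM + 0.5) scale, of the alcohol dehydrogenase genes (shaded) and of 8 protein-coding genes on each side, in RefSeq order with equal spacing. Adh6a and Adh7 lie lowest in both strains. Adh6a is shown as a description without a test, and genes marked as not listed have no value.

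The retinaldehyde dehydrogenases Aldh1a1, Aldh1a2 and Aldh1a3 make retinoic acid. In eye development Aldh1a1 marks the dorsal retina, Aldh1a3 the ventral retina, and Aldh1a2 the surrounding mesenchyme. Aldh1a1 dominated in all libraries, with 78.6% to 90.1% of the summed RPKM of the 3 genes. Its values were 154.29, 147.69 and 84.45 RPKM for the A/J libraries, 83.43, 73.76 and 73.39 for BALB/c, 104.43, 91.48 and 66.93 for C57BL/6J. A/J libraries 1 and 2 were the highest and A/J 3 lay next to BALB/c and within C57BL/6J. The differences of A/J from C57BL/6J (log2 0.64, SE 0.276, limma adjusted p = 0.279) and from BALB/c (log2 0.63, SE 0.276, limma adjusted p = 0.239) were not called. Without A/J 3 both were called, at 0.93 (limma adjusted p = 0.0252) and 0.92 (limma adjusted p = 0.0201), and so they were without A/J 3 and C57BL/6J 3, at 0.69 (0.00189) and 0.92 (0.000107). Without A/J 1 and A/J 2 they were 0.03 and 0.02.

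A/J 1 and A/J 2 stood apart from A/J 3 over all genes too. On a principal component that carried 49.1% of the variance they scored -42.4 and -51.4, against 7.34 for A/J 3. Across genes, which are no independent replicates, the Spearman correlation between a gene's deviation and its transcript GC content was -0.65 and -0.724 in A/J 1 and 2 and 0.458 in A/J 3. The genes most like Aldh1a1 over the 9 libraries were Rbm34 (Pearson r = 0.998), Mphosph8 (0.993), Yme1l1 (0.992), Copb2 (0.992) and Tax1bp1 (0.991), and all 5 had their highest mean in A/J. After GC correction the Aldh1a1 log2 difference of A/J from C57BL/6J was 0.47 (limma adjusted p = 0.268), against 0.64 (0.279) without it. The part of this library structure in the Aldh1a1 values was otherwise not tested. C57BL/6J 3 scored 56.4 on that component, and results are given with and without these libraries where they changed a call. In A/J against C57BL/6J limma called 3630 of all genes without A/J 3, against 348 with all libraries. It called 5043 without A/J 3 and C57BL/6J 3. A call that any gene gained in these fits is therefore not read as particular to it. Of the 31-mers of Aldh1a1, 5.7% occurred in Aldh1a7, a close relative.

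Aldh1a3 had 9.1, 8.77 and 8.64 RPKM for the A/J libraries, 12.53, 12.94 and 12.77 for BALB/c, 12.15, 9.06 and 12.68 for C57BL/6J. The A/J and BALB/c libraries did not overlap and were tight within each strain, while C57BL/6J spanned both. The A/J minus BALB/c difference of -0.57 (log2, SE 0.128) was not called (limma adjusted p = 0.0556), nor was it in 15 of 20 alternatives. In the other 5 it passed: after GC correction (adjusted p = 0.0145), in a fit of only these 2 strains (0.0364), without A/J 3 (0.0199), without C57BL/6J 3 (0.0372) and without both (0.00271). Many more of all genes were called without A/J 3 too, as given below. The log2 difference stayed between -0.65 and -0.51 in all 20 alternatives. Aldh1a2 had the lowest mean of the 3 genes, with 7.78 ± 2.28 RPKM for C57BL/6J, 7.23 ± 2.34 for A/J, 5.16 ± 0.852 for BALB/c (SD, n = 3). Its ranges overlapped between all strains, and it was not called (limma adjusted p = 0.47 to 0.988). Without A/J 3 and C57BL/6J 3 it was called lower in BALB/c than in C57BL/6J (log2 difference -0.62, limma adjusted p = 0.0281) and than in A/J (0.62 for A/J minus BALB/c, limma adjusted p = 0.00728).

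Aldh2 encodes the mitochondrial enzyme that clears acetaldehyde. Its values were 47.42, 45 and 59.07 RPKM for the A/J libraries, 56.01, 65.51 and 65.57 for BALB/c, 67.39, 69.54 and 63.82 for C57BL/6J. All A/J libraries lay below all C57BL/6J libraries, but the difference was not called (log2 -0.30, SE 0.15, limma adjusted p = 0.311). A/J minus BALB/c was -0.38 (SE 0.15, limma adjusted p = 0.209), and was called without A/J 3 (-0.48, limma adjusted p = 0.036). Without A/J 3 and C57BL/6J 3, the A/J level of Aldh2 was called below that of either other strain (limma adjusted p = 0.00888 against C57BL/6J and 0.00312 against BALB/c).

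Aldh3a1, the corneal aldehyde dehydrogenase that oxidises aldehydes from lipid peroxidation, was among the 25 highest genes of every library. Its values were 1817.51, 1999.75 and 1454.41 RPKM for the A/J libraries, 1673.51, 2033.3 and 2054.31 for BALB/c, 1947.48, 1263.22 and 2542.45 for C57BL/6J. The highest and the lowest of all 9 values were both in C57BL/6J. No difference between strains was called (log2 differences 0.03 between A/J and C57BL/6J, 0.23 between BALB/c and C57BL/6J, -0.20 between A/J and BALB/c, each with SE 0.225, limma adjusted p = 0.939, 0.757 and 0.577), and none was called in any alternative. Its level relative to Krt12 in the same library was 0.803, 0.774 and 1.47 for C57BL/6J, 0.747 to 0.797 for BALB/c, 0.619 to 0.663 for A/J. The genes most like it were Pcp2 (Pearson r = 0.984 over 9 libraries), Gnb1 (0.948), Ovol1 (0.903), Jtv1 (0.899) and Btf3 (0.899). Ovol1 encodes an epithelial transcription factor. The share of 31-mers that occurred in other genes was 47.2% for Pcp2, 43.9% for Btf3, 29.5% for Jtv1 and 20.5% for Ovol1, so the levels of these 4 are uncertain, against 0.6% for Gnb1.

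Tkt, an enzyme of the non-oxidative pentose phosphate pathway, had 366.93, 340.02 and 342.97 RPKM for A/J, 339, 461.51 and 419.28 for BALB/c, 310.56, 296.82 and 266.63 for C57BL/6J. Every albino library lay above every C57BL/6J library, and the albino strains overlapped. Summed lens markers were also higher in every albino library than in C57BL/6J, with 82380 to 117000 RPKM for C57BL/6J, 117800 to 127200 for A/J, 141600 to 147100 for BALB/c. Unlike for Tkt, the lens sums of A/J and BALB/c did not overlap. Of the 10 lens markers 0 were called by limma against C57BL/6J. In A/J and BALB/c 3 and 6 had an unadjusted p under 0.05, as had 17.5% and 13.8% of all genes. The median log2 differences of the lens markers from C57BL/6J were 0.42 and 0.70, and their part in the Tkt values was not tested. Relative to Krt12 in the same library, Tkt stood at 0.128, 0.182 and 0.154 for C57BL/6J. The same ratio was 0.125, 0.113 and 0.154 for A/J, 0.151, 0.181 and 0.155 for BALB/c, so the strains overlapped. Relative to Krt5 they overlapped as well, at 0.216 to 0.367 for C57BL/6J, 0.363 to 0.441 for A/J, 0.36 to 0.387 for BALB/c. The part of corneal epithelium in the Tkt values was not tested. The Tkt differences from C57BL/6J, 0.65 in BALB/c (log2, SE 0.162, limma adjusted p = 0.0765) and 0.38 in A/J (SE 0.162, limma adjusted p = 0.275), were not called. Without A/J 3 and C57BL/6J 3 the BALB/c difference was 0.53 and called (limma adjusted p = 0.0256). Of 10 other tested pentose phosphate genes 0 were called in any comparison, and the number with an unadjusted p under 0.05 in limma was 0 in each albino strain against C57BL/6J and 1 in A/J minus BALB/c. Their median log2 differences were 0.19 in A/J and 0.14 in BALB/c against C57BL/6J.

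**Figure D4:**
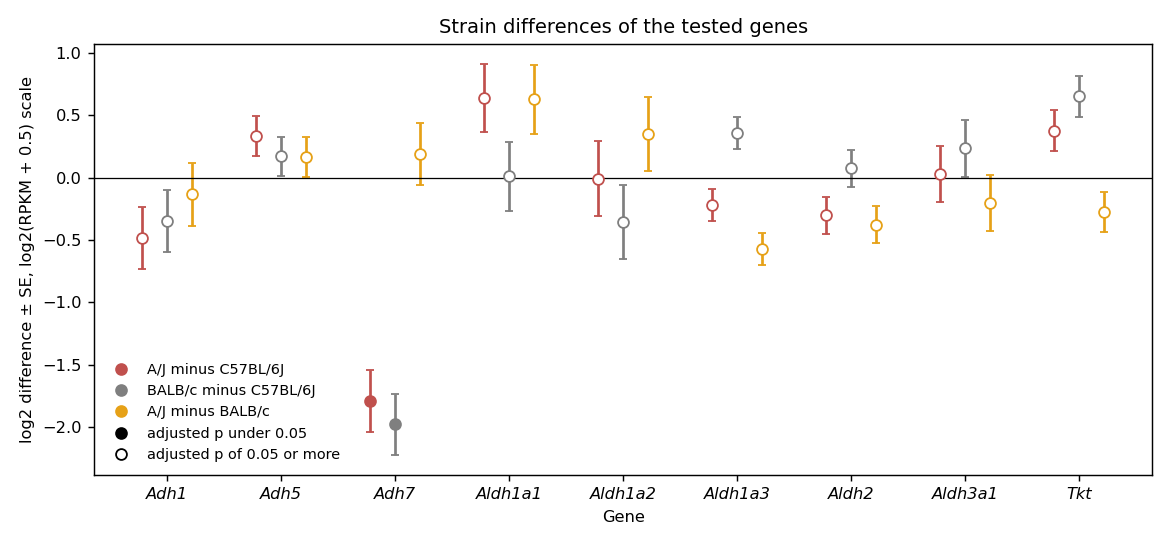
Log2 differences (points) with standard errors (bars) of the 9 tested genes in 3 strain comparisons, on the log2(scaled RPKM + 0.5) scale. Filled points passed an adjusted p of 0.05 in limma. Adh7 against C57BL/6J is filled in both albino strains, and all other points are open.

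Apart from Adh6a, 1 of 9 genes was called lower and 0 higher in A/J against C57BL/6J, where 2.69% of 12920 tested genes were called (1.08% higher and 1.62% lower). The count was the same in BALB/c against C57BL/6J, where 3.09% were called (1.93% higher and 1.15% lower), and Adh7 was the called gene in both. In A/J minus BALB/c 0 of 9 were called, where 2.48% of all genes were (0.573% higher and 1.9% lower). In each comparison 3 of the 9 had an unadjusted p under 0.05 in limma, as had 17.5%, 13.8% and 20.9% of all genes in the same order. A single call among 9 genes is read as a result about Adh7, not about the group. The median log2 differences of the 9 genes were -0.01, 0.07 and -0.14, against -0.01 over all genes in each comparison. RPKM ranges did not overlap between A/J and C57BL/6J for 3 of the 9 (Adh7, Aldh2 and Tkt; 16.3% of all genes), between BALB/c and C57BL/6J for 2 (Adh7 and Tkt; 33.4%), and between A/J and BALB/c for 2 (Aldh1a1 and Aldh1a3; 33.1%). Without A/J 3, where 3630 and 4463 of all genes were called, the 9 gave 3 calls in A/J against C57BL/6J (Adh5 and Aldh1a1 higher, Adh7 lower) and 3 in A/J minus BALB/c (Aldh1a1 higher, Aldh1a3 and Aldh2 lower).

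Lists of related genes were short for the 2.48% to 3.09% of all genes called, so their counts of 0 lie near that share and are no result about them. Of 13 other tested alcohol and aldehyde dehydrogenases 0 were called in each comparison (0 higher and 2 lower, 1 and 2, and 1 and 1 at an unadjusted p under 0.05 in limma, with A/J against C57BL/6J first, then BALB/c against C57BL/6J, then A/J against BALB/c), with log2 differences from -0.85 to 0.55. Of 11 retinoic acid receptor and responsive genes 0 were called (0 higher and 2 lower, 1 and 1, and 0 and 2 at an unadjusted p under 0.05). Their median log2 difference was -0.38 in A/J and -0.02 in BALB/c against C57BL/6J. Of 5 genes of ethanol, acetate and formaldehyde handling 0 were called (1, 1 and 0 at an unadjusted p under 0.05).

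Of 31 genes of retinoid metabolism and transport that passed the filter, Rdh1 and Rdh9, retinol dehydrogenase genes of the short-chain family, did so through A/J alone, so their values are a description with no test. Rdh1 had 1.07, 1.02 and 1.25 RPKM for A/J, 0.62, 0.64 and 0.68 for BALB/c, 0.1, 0.2 and 0.2 for C57BL/6J. Rdh9 had 1.69, 2.28 and 1.59 RPKM for A/J, 0.83, 0.94 and 0.9 for BALB/c, 0.54, 0.54 and 0.57 for C57BL/6J. For each gene the 3 strains did not overlap. Both stand at low levels and share sequence with relatives (27.9% of 31-mers of Rdh1 and 72% of Rdh9), so their levels are uncertain. Of the other 29 genes 0 were called by limma in each comparison. At an unadjusted p under 0.05 there were 8 in A/J against C57BL/6J, 6 in BALB/c against C57BL/6J and 6 in A/J against BALB/c. Of all genes 17.5%, 13.8% and 20.9% had such a p, in the same order. The median log2 difference of the 29 genes from C57BL/6J was -0.17 in A/J and -0.0026 in BALB/c.

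Markers of lens and pigment epithelium were found in every library. The lens gene Cryaa was at 18390.93 to 53088.51 RPKM and the pigment epithelium gene Rpe65 at 56.05 to 249.88. Within-strain Spearman correlations across genes were 0.99 to 0.996 for BALB/c, 0.916 to 0.99 for A/J, 0.91 to 0.981 for C57BL/6J. With values as deposited the median of all genes shifted to -0.11 in A/J and -0.17 in BALB/c against C57BL/6J, and the calls split differently, 156 higher and 225 lower against 250 and 149 in BALB/c minus C57BL/6J, and 95 and 187 against 74 and 246 in A/J minus BALB/c. Optic nerve myelin markers summed to 41.89 to 299.6 RPKM for C57BL/6J, 153.2 to 270 for BALB/c, 278.7 to 1094 for A/J. The extremes were single libraries: A/J 1 held 1094 against 359.5 and 278.7 in A/J 2 and 3. Likewise C57BL/6J 3 held 41.89 against 202.1 and 299.6 in C57BL/6J 1 and 2. The median log2 difference of these markers between A/J and C57BL/6J, 2.08, rests in part on those libraries. There 0 of 7 were called by limma and 4 had an unadjusted p under 0.05, as had 17.5% of all genes. Adipose markers, whose tissue expresses Adh1, summed to 7.85 to 36.0 RPKM for C57BL/6J, 15.6 to 77.5 for A/J, 35.4 to 83.7 for BALB/c. Of these 6 markers 0 were called in limma. At an unadjusted p under 0.05 there were 0 in A/J against C57BL/6J, 4 in BALB/c against C57BL/6J and 2 in A/J against BALB/c. Of all genes 17.5%, 13.8% and 20.9% had such a p, in the same order. The part of the adipose markers in the Adh1 values was not tested.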

How the data were processed

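Whole-eye poly(A) RNA of 3 mouse strains was sequenced in 3 libraries per strain. Per the submitters' processing notes, CASAVA 1.7, GenomeStudio and the mm9 build were used; no source used here states the counting rule or the gene models. The authors deposited RPKM-like values per gene, made before deposit in a way the file headers do not state, and with no named unit. They were taken as RPKM because value times GENCODE M21 transcript length summed to 99.4% to 101.8% of the RPKM total in 8 libraries and 117.4% in C57BL/6J 3. Depth is unknown: at most 32.7% of low values came within 0.1 of whole reads at any depth tried, so no counting interval is given. The sum of RPKM per library was 511888 to 599635.

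Scaling used median-of-ratios factors from 0.931 to 1.158, and the log2 of the scaled value plus 0.5 was analysed. Genes with at least 1 RPKM in at least 3 libraries were tested (12920, leaving out 169) with limma 3.58.1 in R 4.3.3, with a trended prior and robust estimation, strain as the only term, all 9 libraries in 1 fit, two-sided, Benjamini-Hochberg over all genes tested, called at an adjusted p under 0.05. Fits were tested on simulated data with 200 changed genes. The lists, members, tests and alternatives were chosen with earlier results of these data known. All 10 genes are named, with the 5 best-correlated named genes for Adh6a, Aldh3a1 and Aldh1a1, passing over clone names, and called members of the lists described. Marker lists other than those of surface epithelium, lens, myelin and fat are not described, apart from the level of the pigment epithelium gene Rpe65. Genes of a list that passed the filter through 1 strain alone are given without a test. Neighbouring genes, and the marker genes named for a comparison with a result, were chosen after values were seen. Shared sequence is the share of 31-mers of GENCODE M21 transcripts found in another gene. Alternatives changed the pseudocount, filter, scaling, GC content, strains in the fit, replicate block and libraries left out.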

Additional observations from a re-analysis of the deposited data

How the results depend on the processing

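Over 20 alternatives of each comparison, 521 of 540 values of the 9 tested genes stayed on their side of the threshold, the other 19 newly passed it, 0 calls were lost, and 513 kept their sign. The cause of the changes was not tested unless stated. For A/J minus C57BL/6J the 348 calls over all genes became 141 in a fit of only these 2 strains, 126 without A/J 1 and A/J 2 and 5043 without A/J 3 and C57BL/6J 3, and ran from 153 (without A/J 1) to 3630 (without A/J 3) when 1 library was left out. The count of called genes among the 9 was then 4 without A/J 3 and C57BL/6J 3, and 1 to 3 with 1 library left out. For BALB/c minus C57BL/6J the 399 calls became 1877 without A/J 3 and C57BL/6J 3, and ran from 149 (without BALB/c 3) to 630 (without A/J 3) with 1 library left out. The count among the 9 was 3 without A/J 3 and C57BL/6J 3, and 1 with each library left out. For A/J minus BALB/c the 320 calls became 69 without A/J 1 and A/J 2 and 7700 without A/J 3 and C57BL/6J 3, and ran from 79 (without BALB/c 3) to 4463 (without A/J 3). The count among the 9 became 1 after GC correction and 1 with only these 2 strains, settings for which no count over all genes is given here. It was 6 without A/J 3 and C57BL/6J 3, where 7700 of all genes were called, and 0 to 3 with 1 library left out. Counts among the 9 in settings with many calls over all genes are not read as a result about them. The Adh6a difference between A/J and BALB/c was -0.16 and turned to 0.27 with quantile normalization. Adh6a has no value in the 4 alternatives that leave out a C57BL/6J library, since fewer than 3 libraries then reached the minimum. Where 1 library of a strain was left, it was assumed to vary like the others. Same-numbered libraries were not paired: correlations of their deviations ran from -0.515 to 0.537, 5 of 9 were over 0.1, and 2 of 9 libraries correlated best with their own number. With the replicate number as a block there were 406, 398 and 373 calls against 348, 399 and 320. The depth is unknown, so low values such as those of Adh6a in the albino strains cannot be given a counting error.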
